A study of Arabidopsis thaliana with 9 samples.

Results

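The genes described here are 63 Arabidopsis thaliana loci whose level in sorted quiescent centre cells was higher than mock after 1 h of PLT2 release and was still higher after 4 h. They were chosen from 21430 measured loci by their values on these arrays. A locus was taken when its mean log2 level at 1 h lay at least 0.6 above the mock mean, its lowest 1 h array lay above its highest mock array, and its mean at 4 h also lay at least 0.6 above mock. In all, 81 loci met this rule, which is 0.378% of those measured. Another 18 of the 81 were left out, among them the auxin genes YUC3 and PIN4, the gibberellin repressor gene RGL3 and several glucosinolate enzymes, so the 63 are the rest of the early and lasting response.

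The quiescent centre is a small group of slowly dividing cells in the root tip that keeps the surrounding stem cells undifferentiated. PLETHORA (PLT) proteins are AP2-type transcription factors that accumulate there in a gradient and set the size of the stem cell zone and the rate at which cells leave it. A fusion to the glucocorticoid receptor (GR) holds a transcription factor in the cytoplasm until dexamethasone is given, so genes whose level is higher soon after release include candidates for direct control, although new protein synthesis was not blocked in this design.

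All 3 groups, mock included, came from plt1;plt2 double mutant seedlings with 2 constructs, PLT2::PLT2-GR and WOX5::erGFP. PLT2::PLT2-GR, made from the PLT2 promoter, complements the mutant when dexamethasone releases the fusion. Mock seedlings were given no dexamethasone, so by this design their cells lacked released PLT2. WOX5::erGFP marks quiescent centre cells for sorting. Seedlings of 5 days were moved to plates with 10 µM dexamethasone in DMSO and kept there for 1 h or 4 h, while mock seedlings spent 1 h on DMSO alone. Root tips were then digested for 1 h to free the protoplasts and cells with GFP were sorted. The group names give the time on the plate and leave out digestion and sorting. Each group had 3 arrays, which the labels call biological replicates. The labels do not say whether these came from separate cultures or days, so p-values measure only the spread among the arrays, whose number limits the precision. The mock group lasted only 1 h and plants lacking the fusion were not given dexamethasone, so time on the plate, dexamethasone itself and PLT2-GR cannot be told apart at 4 h. At 1 h the mock had the same incubation, while dexamethasone itself and PLT2-GR still cannot be told apart.

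The values are log2 expression levels made with robust multi-array average (RMA), so a difference of 1 is a 2-fold change. Over all loci, pairs of mock arrays correlated at 0.9962 to 0.9972, pairs of 1 h arrays at 0.9949 to 0.9969 and pairs of 4 h arrays at 0.9902 to 0.9935. One array stood apart: the 12 probe sets for added poly-A control RNAs averaged 8.76 on 4 h replicate 1, while elsewhere they averaged 6.02 to 6.57. Mock levels of the 10 measured niche genes differed widely, with PLT3 at 9.63, SCR at 8.55, JKD at 4.67 and PLT1 at 4.33. PLT1 is mutated in all groups, so its value is that of a mutant gene. PLT2 was at 8.58, where transcripts of the construct and of the mutant gene cannot be told apart. AGL42, also a quiescent centre marker, was at 2.88, in the lowest part of the scale. WOX5 itself was not analysed here.

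Over the 63 genes the difference from mock ran from 0.60 to 1.72 at 1 h, with a median of 0.80, and from 0.63 to 2.35 at 4 h, with a median of 1.15. The medians over all loci were -0.008 and 0.01. These differences chose the genes, so they are given as a description without a test, and the comparisons at 1 h and 4 h share their mock arrays. At 1 h 16 of the 63 were at least 1 log2 unit above mock, and at 4 h 41 were. In the 1 h group the median gene had 73.2% of its 4 h difference, with a range from 37.7% for OEP16-1 to 127% for AT2G41990. The loci nearest to the limit were AT3G01690, AT5G48360 and FP3 inside it, with 1 h differences of 0.60, 0.611 and 0.613. PAN, OPT6 and AT2G28870 missed it at 0.588, 0.586 and 0.584, with 4 h differences of 0.761, 0.916 and 1.23.

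**Figure D1:**
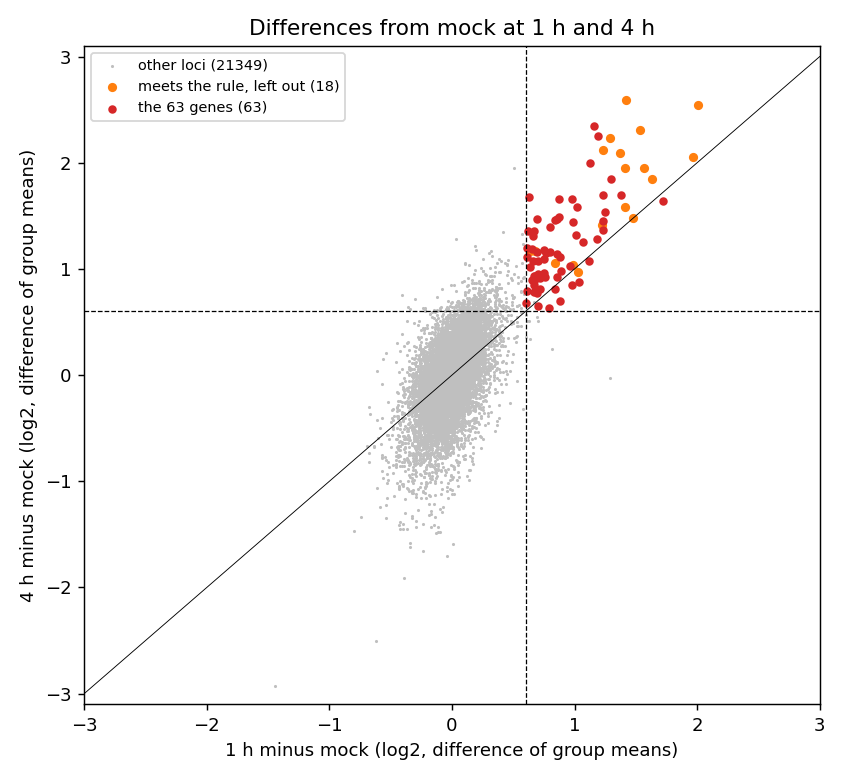
Difference of group means from mock at 1 h (x axis, log2) and at 4 h (y axis, log2) for all 21430 loci, with dashed lines at 0.6 and a solid line of equal differences. The 18 loci left out are in orange. The 63 genes (red) lie up and to the right of both dashed lines by choice, and 55 of them lie above the line of equal differences.

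Of the 90 loci (0.42%) that met the 1 h part of the rule, 81 also met the 4 h part, 9 did not, and 1 of the 9 lay below mock at 4 h. Both parts use the same mock arrays, so these counts describe the choice and do not measure persistence. The mirrored rule for lower levels took 10 loci (0.0467%) at 1 h, of which 8 (0.0373% of all loci) were also lower at 4 h. In the limma model over all loci, 22 of the 63 were called up at 1 h at an adjusted p under 0.05, beside 0.177% of all loci, and 61 were called up at 4 h, beside 5.53%. None was called down at 1 h, beside 0.00933% of all loci. These counts rest on the same contrasts as the rule, and nothing is read from them. MYB34 and AT5G48130 were not called at 4 h. Without mock replicates 1, 2 and 3 in turn the count at 1 h was 10, 5 and 3, and without 1 h replicates 1, 2 and 3 it was 10, 3 and 3. Without 4 h replicate 1 it was 38.

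On each of the 6 dexamethasone arrays all 63 genes lay above every mock array. For the 1 h arrays the rule required this, and 5.73% of all loci met it. At 4 h 14.3% of all loci met it, but the minimum of 0.6 that the rule sets there nearly fixes it for the 63, so nothing is read from their count. The median over the 63 genes, relative to each gene's mock mean, was 0.75, 0.80 and 0.90 on 1 h replicates 1, 2 and 3, and 1.42, 0.99 and 1.09 on 4 h replicates 1, 2 and 3. The 4 h array with the high poly-A controls therefore carried the highest values: it was the highest 4 h array for 54 of the 63 genes (85.7%), against 34.6% of all loci and 70.5% of all loci called up at 4 h. The spread also widened on the 4 h arrays. For the 63 genes the median SD of mock, 1 h and 4 h arrays was 0.145, 0.137 and 0.325, and over all loci it was 0.10, 0.10 and 0.145.

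**Figure D2:**
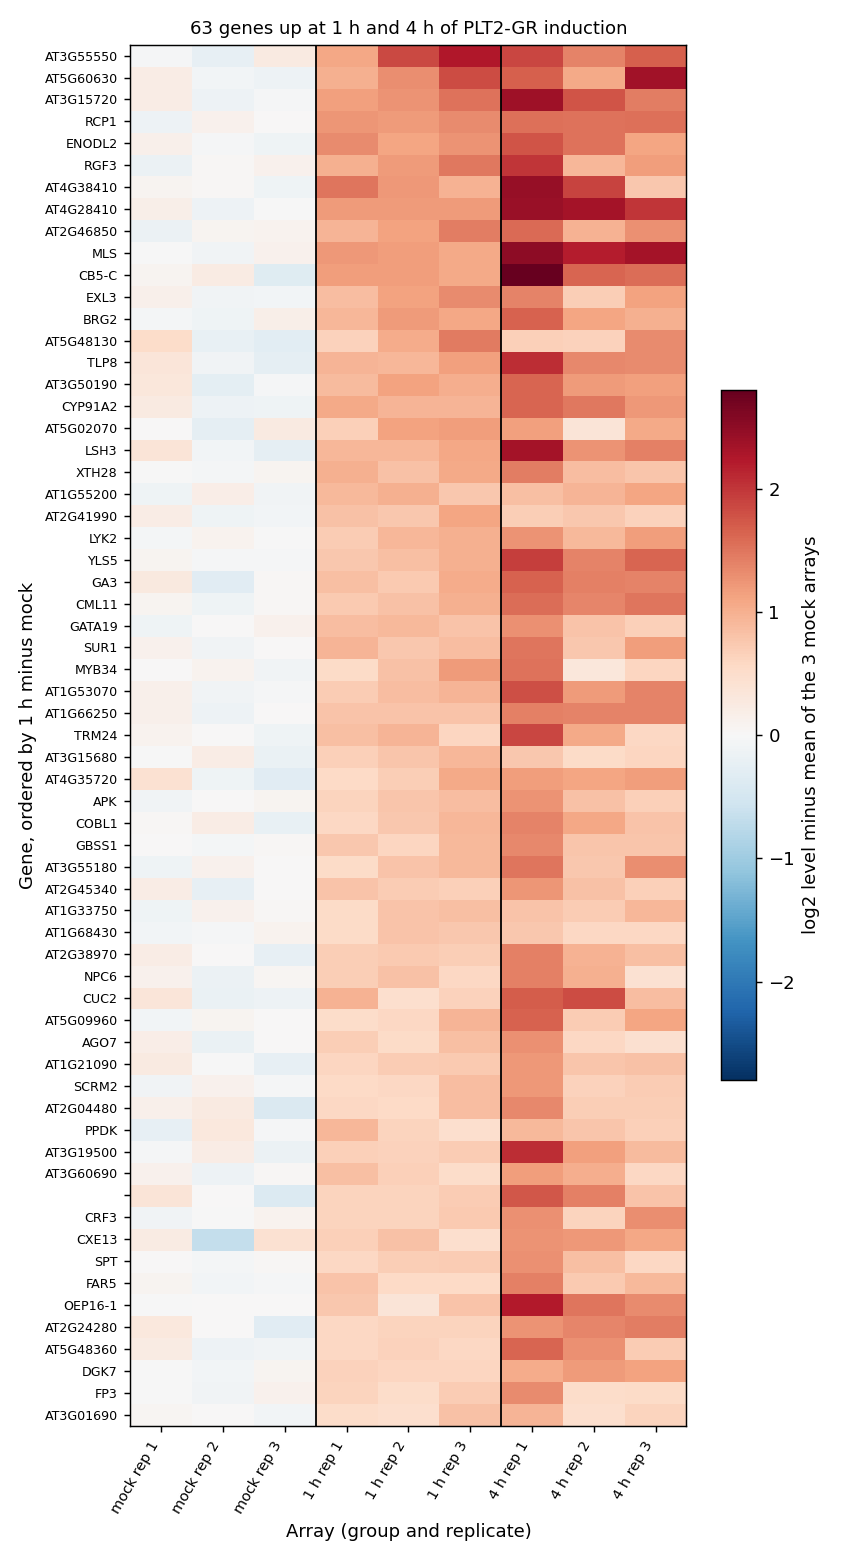
Log2 level of the 63 genes (rows, ordered by 1 h minus mock) on the 9 arrays (columns), each relative to the gene's mean over the 3 mock arrays, with 1 row unlabelled. The 1 h arrays have medians of 0.75 to 0.90 and the 4 h arrays medians of 0.99 to 1.42, and 4 h replicate 1 is the highest of its group for 54 genes.

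The comparison of 4 h with 1 h asked whether these genes stayed at their early level or went on rising. The rule sets a minimum at both times and no order between them, although it uses the same arrays. Its minimum at 4 h removed 9 of the 90 loci that met the 1 h part. It thus limits falls and leaves rises free, so the balance of rises and falls is partly set by the choice. Nothing is read from the counts of falls, and the test is not fully independent of the choice. The mean at 4 h lay above the mean at 1 h in 55 of the 63 genes and below it in 8, where 55.1% of all loci lay higher at 4 h. The median difference was 0.28, against 0.02 over all loci, with a range of -0.19 to 1.19. Without 4 h replicate 1, 46 genes lay above. In 23 genes every 4 h array lay above every 1 h array, against 11.7% of all loci, and in 0 genes did every 4 h array lie below every 1 h array, against 10.1%.

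By limma's two-sided test with Benjamini-Hochberg adjustment over all loci, 8 of the 63 rose between 1 h and 4 h, beside 0.887% of all loci, and 0 fell, beside 0.966%. At an unadjusted p under 0.05 there were 26 up and 0 down. The share of all loci at that threshold was not counted, so nothing is read from these 2 counts. Nor is anything read from the 0 that fell, since the minimum at 4 h limits falls. The 8 were MLS, AT4G28410, OEP16-1, YLS5, AT2G24280, CML11, AT1G66250 and DGK7. The other 55 did not pass, which does not show that they were level. The count depended on single arrays. Without mock replicates 1, 2 and 3 in turn it was 4, 5 and 3, without 1 h replicates 1, 2 and 3 it was 2, 1 and 1, and without 4 h replicates 1, 2 and 3 it was 2, 3 and 20. MLS passed without any 1 of the 9 arrays (adjusted p = 0.0011 to 0.0201). AT4G28410 passed in 7 of the 9 cases, and the other 6 genes in 1 to 3 of the 9.

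**Figure D3:**
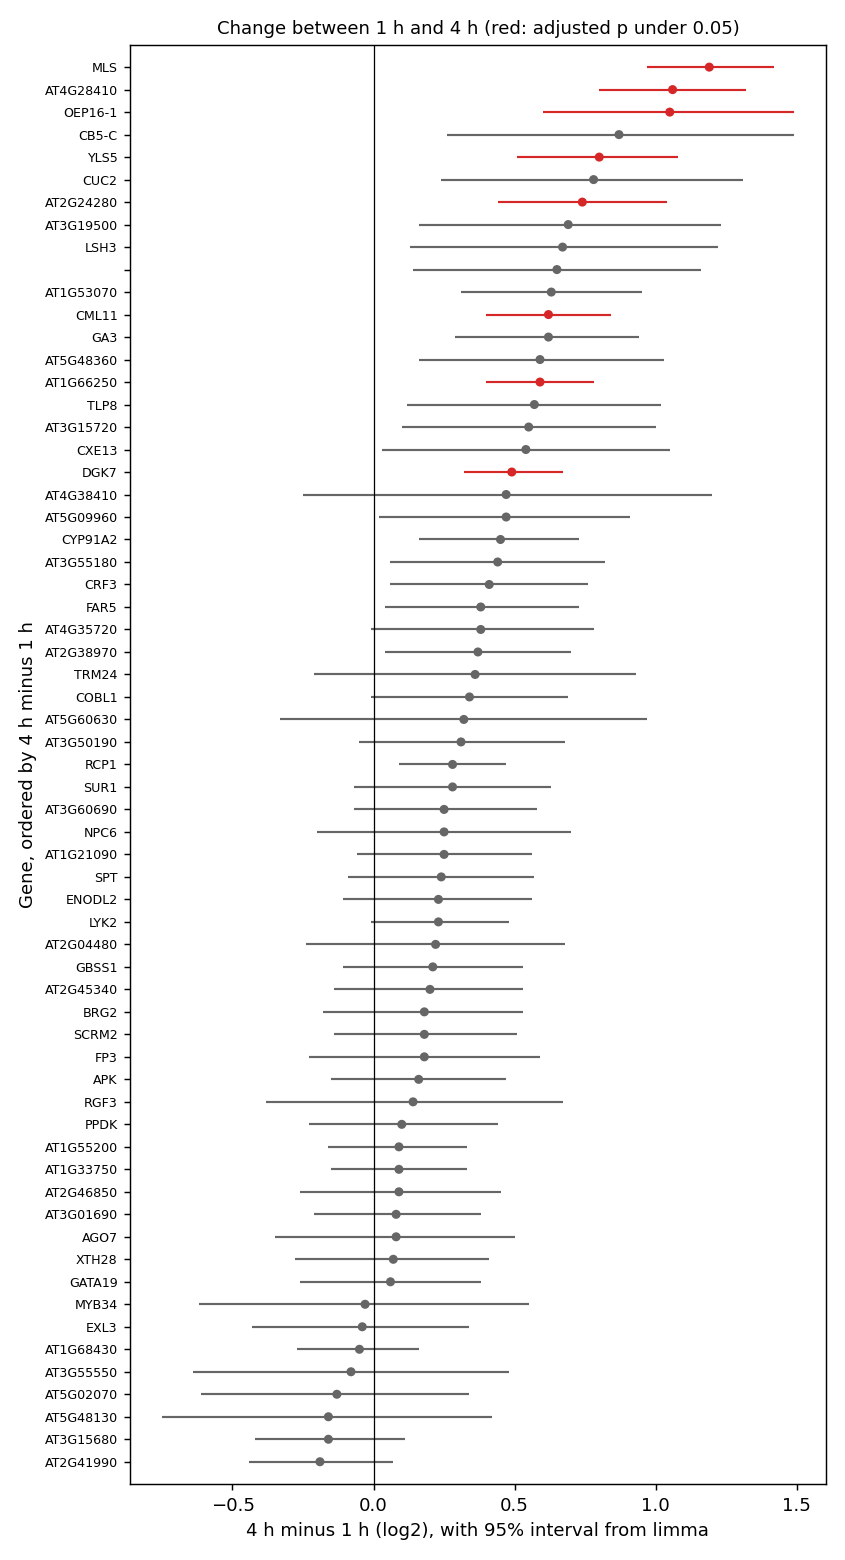
Difference between the 4 h and 1 h means (log2) of each of the 63 genes with its 95% interval from the limma model, ordered by size, with 1 row unlabelled. The 8 genes in red passed at an adjusted p under 0.05 and run from DGK7 at 0.49 to MLS at 1.19, and the genes with a difference below 0 have intervals that include 0.

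Enzymes of carbon and starch metabolism held the gene with the largest difference at 4 h. MLS (AT5G03860) encodes malate synthase, which with isocitrate lyase forms the glyoxylate cycle and lets cells make sugars from fatty acids. MLS stood at 5.94, 5.86 and 6.07 on the mock arrays, at 7.18, 7.14 and 7.02 at 1 h and at 8.47, 8.16 and 8.29 at 4 h. The 3 groups did not overlap, and each step was larger than the spread within a group. It was 1.16 ± 0.10 (SE of the model, n = 3) above mock at 1 h and 2.35 ± 0.10, a 5.10-fold difference, at 4 h. The rise from 1 h to 4 h was 1.19 ± 0.10 (limma adjusted p = 0.00162).

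Of 18 measured genes of the glyoxylate cycle and peroxisomal fatty acid oxidation, a list chosen with MLS in mind, 1 was called up at 1 h (MLS) and 2 at 4 h, 0 were called down, and the list median was 0.01 at both times. Over all loci 0.177% were called up at 1 h and 5.53% at 4 h, and MLS was chosen by the rule. The second call at 4 h was ICL, isocitrate lyase, at 1.06 (limma adjusted p = 0.00621). ICL lay 0.57 above mock at 1 h, just under the limit of the rule. PCK1, which turns the cycle's product into a sugar precursor, had differences of 0.13 and 0.29 and did not pass. The lowest of the list was KAT5, a thiolase of fatty acid oxidation, at -0.64 and -0.68, which did not pass either (limma adjusted p = 0.0879 at 4 h).

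RCP1 (AT5G17520), also called MEX1, exports maltose from plastids when starch is broken down. It stood at 7.31, 7.56 and 7.46 in mock, at 8.68, 8.65 and 8.77 at 1 h and at 8.99, 8.97 and 8.99 at 4 h, and the groups did not overlap. Its SD at 4 h was 0.01, the smallest of the 63, with 4 h replicate 1 among its arrays. The difference from 1 h to 4 h was 0.28 ± 0.09 with a 95% interval of 0.09 to 0.47 and did not pass (limma adjusted p = 0.0996). RCP1 lies near RGL3 in the gene table, with 2 coding genes between them, and RGL3 itself met the rule with differences of 1.29 and 2.23.

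GBSS1, the granule-bound enzyme that makes amylose, lay 0.75 above mock at 1 h and 0.96 at 4 h. PPDK, which interconverts pyruvate and phosphoenolpyruvate, lay 0.67 and 0.78 above mock. For both the 1 h and 4 h arrays overlapped, and the differences between the times were 0.21 and 0.10.

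Genes of glucosinolate and sulfur metabolism formed the next group. Indole glucosinolates are sulfur-rich defence compounds made from tryptophan through indole-3-acetaldoxime, which is also linked to auxin synthesis. SUR1 (AT2G20610), the C-S lyase of the core pathway whose loss makes plants overproduce auxin, lay 0.86 ± 0.16 above mock at 1 h and 1.14 ± 0.16 at 4 h. Its mock arrays ran from 7.57 to 7.78, its 1 h arrays from 8.43 to 8.63 and its 4 h arrays from 8.43 to 9.16, so the times overlapped.

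APK, an adenosine phosphosulfate kinase that supplies the active sulfate used by the last enzymes of the pathway, lay 0.76 above mock at 1 h and 0.92 at 4 h. CYP91A2 (AT4G37430), listed also as CYP81F1, a cytochrome P450 known to modify the indole ring of these compounds, lay 0.99 and 1.44 above mock. MYB34, a transcription factor that activates indole glucosinolate genes, was at 5.8, 5.88 and 5.7 in mock, at 6.32, 6.60 and 6.98 at 1 h and at 7.30, 6.10 and 6.40 at 4 h. At 4 h its 3 arrays spread over more than the distance between the means of 4 h and mock, and its means at the 2 times differed by -0.03 with a 95% interval of -0.62 to 0.55.

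AT4G28410, listed also as Root System Architecture 1, belongs to the tyrosine aminotransferase family, as SUR1 does. It stood at 5.93, 5.62 and 5.76 in mock, at 6.96 on all 3 of the 1 h arrays and at 8.18, 8.09 and 7.78 at 4 h. The groups were well separated at both steps. It was 1.19 ± 0.12 above mock at 1 h, 2.25 ± 0.12 above at 4 h, and rose by 1.06 ± 0.12 between the times (limma adjusted p = 0.0118). This call was lost without 1 h replicate 2 or 3, with the adjusted p reaching 0.118.

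Of 8 measured genes of that family, chosen with these 2 genes known, AT4G28410 was called up at 1 h, AT4G28410 and SUR1 at 4 h, and 1 was called down at 4 h (AT5G36160 at -0.36). Over all loci 0.177% were called up at 1 h, and 5.53% up and 5.23% down at 4 h. The up calls are the 2 genes that the rule chose. The list medians were 0.04 and 0.23. TAT3, a wound- and jasmonate-induced member, had 0.03 at 1 h and 0.79 at 4 h and did not pass (limma adjusted p = 0.0525 at 4 h). AT4G28420, whose locus number follows that of AT4G28410, had 0.05 and 0.11 from a mock level of 2.84.

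Hormone and peptide genes included RGF3 (AT2G04025), which encodes a precursor of the root meristem growth factors, sulfated peptides that act through receptor kinases to keep PLT proteins abundant. RGF3 stood at 8.55, 8.76 and 8.83 in mock, at 9.71, 9.92 and 10.2 at 1 h and at 10.72, 9.65 and 9.89 at 4 h. Both times lay above mock and overlapped each other. Its difference was 1.23 ± 0.24 at 1 h and 1.37 ± 0.24 at 4 h. The difference between the times was 0.14 with a 95% interval of -0.38 to 0.67, and it was -0.17 without 4 h replicate 1, so its direction rests on that array.

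GA3 (AT5G25900), the ent-kaurene oxidase of early gibberellin synthesis, stood at 7.91, 7.32 and 7.66 in mock, at 8.48, 8.37 and 8.66 at 1 h and at 9.29, 9.05 and 9.01 at 4 h. The 3 groups did not overlap. It was 0.87 above mock at 1 h and 1.49 at 4 h, and the step of 0.62 ± 0.15 did not pass (limma adjusted p = 0.0604). BRG2, a RING-type protein of the BOI family, whose members bind the DELLA repressors of gibberellin responses, lay 1.07 and 1.25 above mock. SAUR59 (AT3G60690), of a family of small auxin-induced RNAs, lay 0.67 and 0.93 above mock.

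Genes grouped here as regulators of transcription and small RNAs numbered 7, with differences of 0.65 to 0.98 at 1 h and of 0.77 to 1.66 at 4 h. MYB34, described above, was not counted among them, nor was any gene for which no role is given. CUC2 is a NAC transcription factor that marks the boundaries between organs and is needed for the shoot meristem. It stood at 4.46, 3.94 and 3.98 in mock, at 5.11, 4.59 and 4.77 at 1 h and at 5.83, 5.96 and 5.00 at 4 h.

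LSH3 (AT2G31160), also called ORGAN BOUNDARY 1, is expressed at organ boundaries. It stood at 3.87, 3.44 and 3.26 in mock, at 4.46, 4.45 and 4.61 at 1 h and at 5.84, 4.77 and 4.94 at 4 h. Every 4 h array of LSH3 lay above every 1 h array, while in CUC2 replicate 3 at 4 h lay within the 1 h range. The steps from 1 h to 4 h were 0.78 for CUC2 (limma adjusted p = 0.111) and 0.67 for LSH3 (limma adjusted p = 0.156). Mock levels of both genes lay in the lower part of the scale, where signal near background was not measured.

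The other regulators of this group had smaller differences at 4 h. SPT (SPATULA) is a basic helix-loop-helix (bHLH) factor known from carpel development, at 0.65 and 0.90 above mock. SCRM2 (also ICE2), a bHLH factor of the stomatal lineage, lay 0.67 and 0.85 above. CRF3, an AP2/ERF factor of the cytokinin response factor group, lay 0.66 and 1.07 above, and GATA19, related to the boundary factor HANABA TARANU, 0.86 and 0.92. AGO7, the Argonaute protein that starts the small RNAs directed against auxin response factor genes, lay 0.69 and 0.77 above. Their 4 h ranges overlapped those at 1 h.

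Signalling genes included AT3G55550, an L-type lectin receptor kinase listed as LecRK-S.4, which had the largest 1 h difference of the 63. It stood at 3.57, 3.38 and 3.87 in mock, at 4.69, 5.45 and 5.86 at 1 h and at 5.47, 5.01 and 5.28 at 4 h. The mock mean of 3.61 was close to the 25th percentile of all loci (3.59), so the size of its difference from a dim level is uncertain. It was 1.72 ± 0.25 above mock at 1 h and 1.64 ± 0.25 at 4 h. The times did not differ beyond their spread, at -0.08 with a 95% interval of -0.64 to 0.48, and without 1 h replicate 3 or 4 h replicate 2 the sign turned, to 0.19 and 0.04.

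Among 25 measured lectin receptor kinases, a list chosen with AT3G55550 known, that gene was the 1 called up at 1 h. At 1 h 0.177% of all loci were called up. At 4 h 2 of the 25 were called up and 2 down, near the 5.53% and 5.23% of all loci, and the list medians were -0.08 and -0.07. Its neighbour in the gene table, AGF2, had differences of 0.49 and 0.75.

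CML11, a calmodulin-like calcium sensor, stood at 6.34, 6.13 and 6.30 in mock, at 6.99, 7.08 and 7.26 at 1 h and at 7.82, 7.62 and 7.75 at 4 h. Its groups did not overlap, and it rose by 0.62 ± 0.10 from 1 h to 4 h (limma adjusted p = 0.0291; 0.0109 to 0.158 without single arrays). DGK7, a kinase that converts diacylglycerol to phosphatidic acid, rose by 0.49 ± 0.08 between the times (limma adjusted p = 0.0291). Its mock arrays ran from 6.12 to 6.27, its 1 h arrays from 6.79 to 6.84 and its 4 h arrays from 7.22 to 7.38, and the groups did not overlap.

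NPC6, a phospholipase C that releases diacylglycerol, lay 0.70 above mock at 1 h and 0.95 at 4 h. LYK2, a LysM receptor-like kinase, lay 0.88 and 1.11 above. TRM24, of a family that recruits TON1 to cortical microtubules, lay 0.80 and 1.16 above, with 4 h values from 4.63 to 5.93.

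Genes grouped here under cell wall and surface numbered 5, leaving aside the genes for which no role is given. Their levels at the 2 times overlapped in all 5. Of all loci only 11.7% lay wholly higher at 4 h than at 1 h and 10.1% wholly lower, so nothing is read from this. ENODL2 (AT4G27520), an early nodulin-like protein of the cell surface, stood at 5.82, 5.64 and 5.55 in mock, at 7.0, 6.77 and 6.93 at 1 h and at 7.43, 7.18 and 6.77 at 4 h. It was 1.23 ± 0.15 above mock at 1 h and 1.45 ± 0.15 at 4 h. The difference between the times, 0.23, had a 95% interval of -0.11 to 0.56.

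EXL3, related to the growth regulator EXORDIUM, lay 1.12 above mock at 1 h and 1.07 at 4 h. XTH28, an enzyme that cuts and rejoins xyloglucan, lay 0.96 and 1.03 above. COBL1, of the COBRA family linked to cellulose orientation, lay 0.75 and 1.09 above, and FAR5, a fatty acyl reductase that makes alcohols of suberin, 0.64 and 1.02.

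Of the remaining annotated genes, 3 were among the 8 largest at 4 h, the last of them YLS5, which ties with LSH3 at 1.66 and lies above it before rounding. OEP16-1 (AT2G28900), a channel of the outer plastid membrane, stood at 6.10, 6.14 and 6.12 in mock, at 6.88, 6.48 and 6.91 at 1 h and at 8.33, 7.62 and 7.45 at 4 h. It had the smallest share of its 4 h difference at 1 h, and it rose by 1.05 ± 0.20 between the times (limma adjusted p = 0.0388). Leaving out single arrays gave adjusted p-values of 0.00623 to 0.179 and kept the call in 1 of 9 cases, that without 4 h replicate 3.

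CB5-C, a cytochrome b5 that carries electrons to other enzymes, stood at 5.09, 5.25 and 4.68 in mock, at 6.17, 6.17 and 6.07 at 1 h and at 7.80, 6.65 and 6.58 at 4 h. Its 2.00 ± 0.28 above mock at 4 h drew on replicate 1, which lay more than 1 log2 unit above the other 4 h arrays. The step of 0.87 from 1 h did not pass (limma adjusted p = 0.114), and it was 0.48 without that array. Without 4 h replicate 3 it was 1.09 and passed. YLS5 (AT2G38860), a DJ-1 family protein, stood at 7.94, 7.83 and 7.83 in mock, at 8.62, 8.72 and 8.86 at 1 h and at 9.81, 9.27 and 9.50 at 4 h. Its groups did not overlap, and the rise from 1 h to 4 h was 0.80 ± 0.13 (limma adjusted p = 0.0291; 0.00964 to 0.158 without single arrays).

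TLP8, a tubby-like protein, lay 1.02 above mock at 1 h and 1.58 at 4 h, and CXE13, a carboxylesterase, 0.65 and 1.19. FP3, a farnesylated protein, lay 0.61 and 0.79 above. The coding genes on either side of CXE13 in the gene table, CXE12 and AT3G48710, had 4 h differences of 0.71 and 0.62, and 1 h differences of 0.30 and 0.16.

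**Figure D4:**
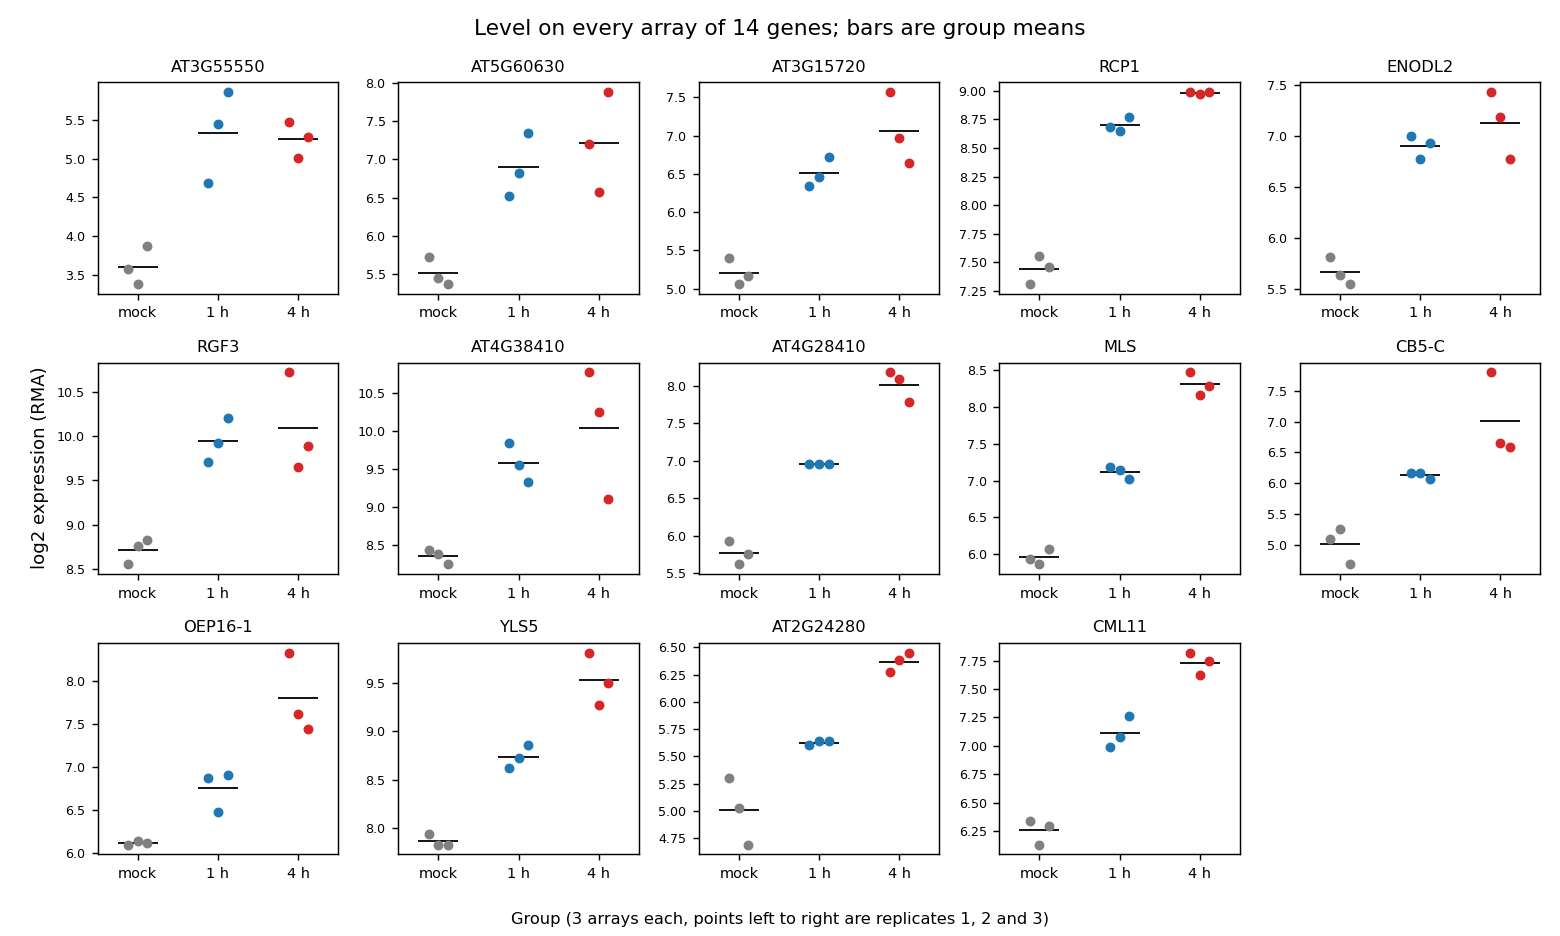
Log2 expression on every array of the 14 genes with the largest differences from mock at either time or, for the 6 largest, called between the times, in mock, 1 h and 4 h, with bars at the group means. MLS, AT4G28410, YLS5 and CML11 climb in 2 separate steps, whereas AT3G55550, RGF3 and ENODL2 have overlapping values at 1 h and 4 h.

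For 25 of the 63 genes the gene table gives no name beyond the locus and clone identifiers, and no role is given here. Their differences ran from 0.60 to 1.38 at 1 h and from 0.63 to 1.85 at 4 h. AT5G60630 stood at 5.73, 5.45 and 5.37 in mock, at 6.52, 6.82 and 7.35 at 1 h and at 7.2, 6.57 and 7.88 at 4 h, and the times overlapped. AT3G15720 stood at 5.40, 5.06 and 5.16 in mock, at 6.34, 6.46 and 6.72 at 1 h and at 7.57, 6.97 and 6.64 at 4 h.

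AT3G15720 thus had 2 of its 3 arrays at 4 h above the 1 h range, and its step of 0.55 did not pass (limma adjusted p = 0.161), though it did, at 0.76, without 4 h replicate 3. AT4G38410 stood at 8.43, 8.38 and 8.24 in mock, at 9.84, 9.56 and 9.33 at 1 h and at 10.78, 10.25 and 9.11 at 4 h. Its SD of 0.85 at 4 h was the largest of the 63, and its step of 0.47 was 0.94 without 4 h replicate 3, where it passed, and 0.11 without 4 h replicate 1.

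AT2G24280 had its arrays at 5.30, 5.03 and 4.69 in mock, 5.60, 5.64 and 5.64 at 1 h and 6.27, 6.38 and 6.45 at 4 h. It rose by 0.74 ± 0.13 between the times (limma adjusted p = 0.0362) and 4 h replicate 1 was its lowest 4 h array. AT1G66250 was at 6.62, 6.34 and 6.49 in mock, at 7.28 on all 3 arrays at 1 h and at 7.89, 7.86 and 7.86 at 4 h. Its rise of 0.59 ± 0.09 from 1 h to 4 h had an adjusted p of 0.0222 in limma.

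The 8 genes whose 4 h mean lay below the 1 h mean were AT2G41990 (-0.19), AT5G48130 (-0.16), AT3G15680 (-0.16), AT5G02070 (-0.13), AT3G55550 (-0.08), AT1G68430 (-0.05), EXL3 (-0.04) and MYB34 (-0.03). All of their 95% intervals included 0. Values at the 2 times overlapped in 40 of the 63 genes, where all loci but the 11.7% wholly higher and the 10.1% wholly lower at 4 h overlapped.

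The 63 genes were spread over the 5 nuclear chromosomes, with 10 to 14 on each. None of the 94 measured coding genes directly beside them in the gene table was itself in the set. With 63 of 21430 loci in the set, nothing is read from that. These neighbours had median differences of 0.02 at 1 h and 0.03 at 4 h, 0 of the 94 reached 0.6 at 1 h and 4 did at 4 h. The share of all loci reaching 0.6 was not counted, so these counts are description only. The closest pairs within the set were AT3G15680 and AT3G15720, with 3 coding genes between them, and NPC6 and CXE13, with 8 between them. Without the probe set definition it cannot be seen which probes match close relatives too, which leaves values of family members uncertain.

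Markers of other root cell types were examined beside these genes. At 1 h limma called 0 of 7 root cap, 0 of 8 epidermis and root hair, 0 of 9 endodermis, 0 of 11 vascular and 0 of 11 wound and stress genes, with list medians of -0.17, -0.06, -0.08, 0.01 and -0.14. With 0.177% of all loci called up and 0.00933% called down at that time, nothing is read from these zeros. The root cap gene FEZ, one of the 18 loci left out, lay 1.03 above mock at 1 h without passing (limma adjusted p = 0.29). At 4 h FEZ was called up at 0.97, beside 5.53% of all loci, and 2 epidermis, 1 endodermis and 3 vascular genes were called down, beside 5.23% of all loci, with medians of -0.40, -0.21, -0.46 and -0.05. The wound list had 0 calls and a median of -0.22. A summed level is the log2 of a list's added unlogged values, given from the lowest to the highest array of a group. The brightest gene weighs most in it, such as RCPG (11.55 in mock) for the root cap. The summed level of the root cap list in mock, 1 h and 4 h was 11.9 to 12.25, 11.81 to 12.15 and 11.56 to 11.89. For the endodermis list it was 7.94 to 8.41, 8.08 to 8.26 and 7.52 to 7.86.

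Summed levels in mock, 1 h and 4 h were 9.91 to 10.04, 9.79 to 9.97 and 9.49 to 9.89 for epidermis, and 9.46 to 9.64, 9.38 to 9.55 and 9.16 to 9.40 for vascular genes. Those of wound genes were 14.23 to 14.48, 14.04 to 14.34 and 13.94 to 14.28. Among the defining markers, the vascular genes VND6 (2.94) and VND7 (2.91) had mock levels in the lowest part of the scale. Of the 10 measured niche genes, MYB56 was called up at 4 h, beside 5.53% of all loci, and 9 were not called. Their summed level on mock, 1 h and 4 h arrays was 10.86 to 10.96, 10.90 to 11.04 and 10.80 to 11.0. This sum includes PLT2, whose signal can come from the construct, and PLT1, which is mutated in all groups. In such bulk samples fewer cells of a type and less RNA per cell cannot be told apart, and the part of these shifts in the results for the 63 genes was not tested.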

How the data were processed

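Expression was measured with arrays in 9 samples of sorted Arabidopsis root cells, 3 each for mock, 1 h and 4 h. Per the submitters' processing notes the authors used RMA, and the deposited table holds its log2 values, 1 per probe set. The notes list limma 3.24.15 as well. Array type and build were not given in the sources used here, nor was a probe set definition. The 64 control rows were set aside, which left 21430 loci, 1 row each. Of these, 21231, including all 63 genes, matched the TAIR10.1 RefSeq gene table, used for names and gene order. No sequences were used.

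One limma 3.58.1 model (R 4.3.3) was fitted to all loci and arrays without further normalization or filtering, with 6 residual and 4.47 prior degrees of freedom. Tests were two-sided with Benjamini-Hochberg adjustment over 21430 loci and a threshold of 0.05. Errors after ± are the model's standard errors (median 0.108 for 4 h minus 1 h). The procedure was tested on simulated data.

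Genes given on every array were the 8 largest at each time and the 6 largest called between the times, and others were added, like the role groups, after their values were seen. The genes, lists and rules were chosen with earlier results of these data known. Alternatives were centring on array medians, quantile normalization, leaving out loci below the 40th percentile, array weights, eBayes with trend and robust settings, blocking on the replicate number, a fit to the groups compared alone, and leaving out each array. Planned promoter and protein comparisons were not run. One gene of the set is counted but not reported here by name.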

Additional observations from a re-analysis of the deposited data

Results flagged for a closer look

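For 8 of the 63 genes, beside 0.887% of all loci, the difference from mock was larger at 4 h than at 1 h. This was a test of the difference itself, the limma contrast of 4 h with 1 h. The rule's minimum at 4 h limits falls and leaves rises free, so the test is not fully independent of the choice. The values on the log2 scale were 1.19 for MLS, 1.06 for AT4G28410, 1.05 for OEP16-1, 0.80 for YLS5, 0.74 for AT2G24280, 0.62 for CML11, 0.59 for AT1G66250 and 0.49 for DGK7. In each of them all 3 arrays at 4 h lay above all 3 at 1 h, beside 11.7% of all loci. The call itself makes that likely, so nothing is read from it. MLS kept its call without any 1 of the 9 arrays, AT4G28410 in 7 of the 9 cases and the others in 1 to 3. With only the groups compared the count was 1. The mock arrays were incubated for 1 h. A change with time on the plate and the effect of longer PLT2-GR release thus cannot be told apart in the difference between 4 h and 1 h.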

How the results depend on the processing

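With quantile normalization or centring, and without single arrays, the rule took 57 to 76 genes in place of 63. Of the 63 genes it kept 54 to 63, with the fewest without mock replicate 3. The count called up at 4 h against mock was 53 to 61 under all 16 alternatives. Under each of them 0 of the genes tested were called lower at 4 h than at 1 h, beside 0.966% of all loci in the main fit. The rule's minimum at 4 h limits falls, so nothing is read from these zeros. Leaving out loci below the 40th percentile kept 60 of the 63. It ranks loci by their mean over all arrays, which higher 1 h and 4 h values raise, so it is no test of genes dim in mock. The count called up at 1 h (22) was 43 with array weights, 41 with only the groups compared, and 3 to 38 without single arrays. The count called higher at 4 h than at 1 h (8) was 13 with array weights, 1 with only the groups compared, and 1 to 20 without single arrays. The labels do not say whether replicate numbers pair the arrays. Deviations from the group means correlated at -0.131 to 0.273 for same-numbered arrays and at -0.459 to 0.427 for the others. With 3 arrays in each group this cannot decide whether they were paired. With the replicate number as a block the 3 counts were 17 at 1 h, 61 at 4 h and 9 between the times. Added after seeing the data, the count with a 4 h mean above the 1 h mean (55) was 46 to 59 without single arrays and that with no overlap upward (23) was 23 to 33. The difference between the times turned in sign for RGF3 with array weights (-0.06) and without 4 h replicate 1 (-0.17), for AT5G60630 without 4 h replicate 3 (-0.01), and for AT3G55550 without 1 h replicate 3 (0.19) or 4 h replicate 2 (0.04). Without single arrays it spanned -0.17 to 0.36, -0.01 to 0.64 and -0.4 to 0.19 for these genes, and the cause was not tested. MLS kept its call under all 16 alternatives. Signal over background was not measured, which limits dim genes such as AT3G55550 and LSH3.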
